A study of Mus musculus with 2 samples.

Results

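The keratin gene clusters were described by the regions called in them from chromatin immunoprecipitation of a Myc-tagged transgene product. Members were taken by position: a region belonged to the type I cluster if its midpoint lay in chr11:99000000-100150000 (mm9, 1.15 Mb), and to the type II cluster if it lay in chr15:101150000-101900000 (mm9, 0.75 Mb). This gave 31 of the 25592 regions of sample 1 (15 in the type I and 16 in the type II cluster) and 43 of the 42619 regions of sample 2 (21 and 22), or 74 of 68211 in all. Both samples were immunoprecipitates of corneal epithelium at postnatal day 7, of the genotype K14 DN-Clim, and they formed 1 group of 2 replicates. DN-Clim is a dominant-negative form of Clim, a nuclear cofactor without a DNA-binding domain that binds LIM-domain transcription factors, and K14 names the keratin 14 promoter, which drives genes in basal epithelial cells. The transgene driver is thus named after a gene of the type I cluster, and whether its sequence is that of the mouse gene was not analysed here. Every sample analysed here carried the transgene. Libraries of wild-type or untagged chromatin or of input were not analysed here, and the counts therefore have no control value beside them. The labels do not say whether the samples came from separate animals, so their agreement may be technical, and their strain is not given in the sources used here.

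Keratins are the intermediate filament proteins of epithelial cells. Each filament is built from pairs of an acidic type I and a basic type II keratin, and the genes of each type lie side by side in a cluster of their own, with Krt18 as the exception: it encodes a type I keratin but lies beside Krt8 in the type II cluster. Which pair a cell uses depends on its layer and tissue, so the clusters are textbook examples of neighbouring genes with different cell-type programmes.

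All 34 listed keratin genes were found by symbol in a RefSeq gene table of the GRCm38 assembly, 15 on chromosome 11 and 19 on chromosome 15. That assembly is not the build of the called regions, so the table was used for names and order only, and which gene a called region lies in or beside was not analysed here. From the proximal to the distal side of the type I cluster, the order began with Krt24 and the inner root sheath keratins of the hair follicle, Krt25, Krt26, Krt27 and Krt28. Next came Krt10, the keratin of differentiating epidermal cells, and Krt12, the keratin typical of corneal epithelium, followed by the intestinal keratin Krt20 and by Krt23. The centre was taken up by keratin-associated protein genes of hair (23 with a Krtap symbol) and by hair keratins. The distal part held Krt13 of stratified mucosa, Krt15, found in basal cells and used as a marker of limbal progenitors, Krt19, Krt14 of the basal layer, and Krt16 and Krt17, which are known for induction on injury. In the type II cluster, Krt80 and the simple-epithelium keratin Krt7 came first, then a block of hair keratins, Krt75, the stress-inducible Krt6b and Krt6a, and Krt5, the basal partner of Krt14. They were followed by the inner root sheath keratins Krt71, Krt74, Krt72 and Krt73. The epidermal keratins Krt2 and Krt1, partners of Krt10, came next with Krt77 and Krt76, and the cluster ended with the mucosal keratin Krt4, Krt79, Krt78, and the simple-epithelium pair Krt8 and Krt18.

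Both keratin clusters held called regions, most of the sample 1 ones found in both samples. The type I cluster had 13 regions found in both samples (overlap of at least 1 bp, overlapping regions merged), 2 found in sample 1 only and 8 in sample 2 only. The type II cluster, which is shorter, also had 13 shared regions, with 2 in sample 1 only and 8 in sample 2 only. Every region has a score, the authors' peak caller's own value, whose scale is not stated. A region is therefore placed by its percentile, the share of its own list with a score at or below it, and since the lists differ in length, percentiles of different lists do not measure a change. The map of both clusters shows each region at its distance from the proximal limit.

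The proximal 300 kb of the type I cluster held 7 of its 13 shared regions. The first, chr11:99010619-99010717, scored 116.88 in sample 1 and 132.10 in sample 2, at percentiles 22.6 and 85.3. It was followed by 2 regions 1516 bp apart, wide in both lists. The proximal one, chr11:99039412-99039577, scored 100.82 and 61.74 (percentiles 15.8 and 25.1), and it ended at the same base in both lists. Its neighbour, chr11:99041094-99041276, scored 153.66 and 254.12 (percentiles 41.3 and 99.1), so it was near the middle of sample 1 and near the top of sample 2. The region chr11:99067754-99067841 scored 172.77 and 63.16 (percentiles 53.9 and 27.2). At chr11:99122827-99122916 the scores were 176.34 and 189.85 (percentiles 55.7 and 96.5), and at chr11:99199556-99199633 they were 275.81 and 100.77 (percentiles 87.0 and 66.8). These had the highest mean percentiles of the shared type I regions, 76.1 and 76.9. The last of this stretch, chr11:99262642-99262796, was 86 bp wide in sample 1 and 153 bp in sample 2, with scores of 109.62 and 84.47 (percentiles 19.6 and 53.5).

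Whether the middle of the type I interval holds the genes at the centre of the gene order was not analysed here. This middle stretch was sparse. Between 300 and 800 kb from the proximal limit it held 2 shared regions, chr11:99435763-99435899 with scores of 195.88 and 85.48 (percentiles 64.8 and 54.6) and chr11:99717874-99718026 with scores of 176.34 and 63.46 (percentiles 55.7 and 27.5). No region of either list lay in chr11:99485881-99717873, a stretch of 232.0 kb. The 282.0 kb between the shared regions named here was the longest distance between neighbouring shared regions in the cluster. That distance was not unusual for the chromosome: in windows of the same length on the rest of chromosome 11, the longest such distance had a median of 289.9 kb and reached at least 282.0 kb in 51 of 100 windows with more than 1 shared region.

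The distal part of the type I cluster held the remaining 4 shared regions. At chr11:99811851-99812081 the scores were 115.40 in sample 1 and 133.87 in sample 2 (percentiles 21.9 and 85.7), and both lists had a wide region there, 178 and 216 bp. The region chr11:99900443-99900623 scored 190.47 and 67.66 (percentiles 62.5 and 33.6). It was narrow in sample 1 (76 bp) and wide in sample 2 (181 bp). The reverse held for chr11:99971648-99971831, with 184 bp and a score of 135.55 in sample 1 against 61 bp and 100.40 in sample 2 (percentiles 30.8 and 66.7). The most distal one, chr11:100094629-100094753, scored 100.50 and 93.29 (percentiles 15.5 and 61.2).

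The highest sample 2 score of both keratin clusters belonged to a region found in sample 2 only. It lay in the distal type I cluster at chr11:100068924-100069038, was 115 bp wide and scored 339.11, at percentile 99.7 of its list. The nearest sample 1 region was 25590 bp away. Among all 21976 sample 2 regions without a partner only 1 other scored as high, and it had the highest score of the 1237 on chromosome 11. The keratin gene that it neighbours was not analysed here. The transgene carries a keratin 14 promoter, and whether copies of it bear on the scores of this cluster was not tested. The next type I regions without a partner in sample 1 were chr11:99320215-99320279 with a score of 114.84 (percentile 76.7) and chr11:100015401-100015463 with 72.90 (percentile 40.0). Of the 8 type I regions found in sample 2 only, 4 scored below 70.03, the lowest score in the sample 1 list, against 588 of 1229 (47.8%) on the rest of chromosome 11, so the count is near the background. These counts assume the same scale in both lists. The regions found in sample 1 only were chr11:99144245-99144314 (score 223.88, percentile 74.9) and chr11:99232238-99232321 (170.09, percentile 51.5). The former lay 1160 bp from a low-scoring sample 2 region, chr11:99142923-99143084 (score 52.96, percentile 7.60), and the latter 30322 bp from any sample 2 region.

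Over its first 600 kb the type II cluster held 5 shared regions. The most proximal, chr15:101166245-101166340, scored 134.20 in sample 1 and 92.61 in sample 2 (percentiles 30.3 and 60.4). The region chr15:101372497-101372575 scored 278.92 and 87.48 (percentiles 87.5 and 56.5) and was narrow in both lists. Sample 2 had further regions on either side of it, at chr15:101367737-101367843 (score 93.19) and at chr15:101372911-101373101 (score 50.28, percentile 0.666), neither of which overlapped a sample 1 region. At chr15:101512782-101512880 the scores were 207.04 and 84.12 (percentiles 69.0 and 53.0), with the same last base in both lists. The shared region of this cluster with the highest sample 2 score was chr15:101600055-101600131, with 243.72 (percentile 98.9) against 212.00 in sample 1 (percentile 71.0). A sample 2 region of almost the same rank, chr15:101600918-101600985, lay 786 bp from it with a score of 205.64 (percentile 97.6), and it had no sample 1 partner. Only 35 of the 21976 sample 2 regions without a partner scored at least as high, itself included. The fifth, chr15:101690807-101690952, scored 136.75 and 112.99 (percentiles 31.6 and 75.7).

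The last 150 kb of the type II cluster held 8 of its 13 shared regions, 53.3 per Mb against 8.33 per Mb in the 600 kb before it. In sample 1 it held 10 of 16 regions, and in sample 2 it held 12 of 22. Of 663 consecutive 150-kb windows on the rest of chromosome 15, 3 held at least 8 shared regions (0.452%), and none held more than 8. The stretch was chosen after the positions were seen, so this share is a description. It began with chr15:101759442-101759562, which started at the same base in both lists and scored 156.26 and 138.66 (percentiles 43.9 and 87.2), and with chr15:101770776-101770957, which scored 184.58 and 121.52 (percentiles 59.4 and 80.7). Both lay in the upper part of sample 2. The region chr15:101779069-101779141 scored 207.35 in sample 1 (percentile 69.7) and 55.55 in sample 2 (percentile 13.3).

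A double region lay at chr15:101845066-101845410, the widest shared region of the clusters with 345 bp. Sample 1 had a wide region of 218 bp with a score of 127.88 and, 41 bp further on, a narrow one of 72 bp with 220.12. Sample 2 had 2 wide regions 31 bp apart, of 146 bp with a score of 190.25 and of 140 bp with 61.74. The higher score was thus on the distal side in sample 1 and on the proximal side in sample 2. With the higher score of each list, this double region and chr15:101600055-101600131 had the highest mean percentile of all shared keratin regions, 85.0 each, and no other shared region of the clusters exceeded 77.8.

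The remaining shared regions of the type II cluster lay within 50 kb of its distal limit. The region chr15:101856733-101856889 scored 86.60 and 83.74 (percentiles 8.70 and 51.7), the lowest sample 1 score of the clusters. The opposite was seen at chr15:101873388-101873462, with 269.93 in sample 1 (percentile 86.0) and 53.53 in sample 2 (percentile 9.01). At chr15:101882466-101882590 the scores were 297.19 and 98.46 (percentiles 90.1 and 65.5), the highest sample 1 score of a shared region in either cluster. The most distal, chr15:101893610-101893743, had scores of 207.04 and 84.12 (percentiles 69.0 and 53.0).

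Several type II regions without a partner also lay in this distal stretch. The highest sample 1 score of both clusters was at chr15:101804791-101804869, with 310.58 (percentile 91.6), 1583 bp from the sample 2 region chr15:101803111-101803207 (score 70.26, percentile 37.0). In sample 2, chr15:101899832-101899892 scored 143.15 (percentile 88.9) and chr15:101831215-101831269 scored 117.98 (percentile 79.1), at 6090 and 13796 bp from the nearest sample 1 region. The other sample 1 region without a partner, chr15:101271049-101271119 (score 160.19, percentile 46.1), was 96617 bp from any sample 2 region. Of the 8 type II regions found in sample 2 only, 2 scored below the lowest sample 1 score, against 498 of 979 (50.9%) on the rest of chromosome 15, again on the assumption of the same scale.

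Most sample 1 regions of the clusters were shared. In the type I cluster 13 of 15 sample 1 regions overlapped a sample 2 region (86.7%, exact Clopper-Pearson 95% interval 59.5 to 98.3%), against 80.4% of the whole sample 1 list and 79.3% of the rest of chromosome 11. In the type II cluster the count was 14 of 16 (87.5%, 61.7 to 98.4%), against 82.8% on the rest of chromosome 15. Of the sample 2 regions, 13 of 21 in the type I cluster (61.9%, 38.4 to 81.9%) and 14 of 22 in the type II cluster (63.6%, 40.7 to 82.8%) overlapped a sample 1 region, against 48.4% of the whole sample 2 list. The shares on the rest of chromosomes 11 and 15 were 50.8% and 48.9%. All 4 shares of the clusters were above those of the rest of their chromosome, and every one of the 4 intervals held that share, so with so few regions no difference was detectable. Such intervals cover counting error only and take regions as independent.

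The density of shared regions in the type I cluster was near that of the rest of chromosome 11 and below that of its flanks. The cluster had 11.3 per Mb (exact Poisson 95% interval 6.02 to 19.3) and the rest of the chromosome 10.7 per Mb, a ratio of 1.05 (exact 95% interval 0.560 to 1.81). Cut into consecutive windows of the cluster's length, the rest of the chromosome had a median of 11 shared regions per window, with a range of 1 to 46, and 44.6% of its 101 windows held at least 13. The stretches next to the cluster were denser, with 45 shared regions in the 2 Mb on the proximal side (22.5 per Mb) and 41 in the 2 Mb on the distal side (20.5 per Mb). Relative to these flanks together, the ratio was 0.526 (0.269 to 0.947). For all regions of a list, shared or not, it was 0.470 (0.255 to 0.809) in sample 1 and 0.465 (0.280 to 0.736) in sample 2. Over these chromosome 11 windows the variance of the count was 5.14 times its mean, so intervals that take regions as independent are too narrow, and one that allowed for this could reach 1.

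The type II cluster had 17.3 shared regions per Mb (9.23 to 29.6) and the rest of chromosome 15 had 9.35 per Mb. The ratio was 1.85, with an exact 95% interval of 0.984 to 3.19 that includes 1. For all regions of a list, shared or not, it was 1.89 (1.08 to 3.08) in sample 1 and 1.53 (0.955 to 2.32) in sample 2. Of 131 windows of 0.75 Mb on the rest of the chromosome, 15.3% held at least 13 shared regions, with a median of 6 and a range of 0 to 24. The variance of these counts was 3.53 times their mean, and that of the sample 1 counts 4.12 times. Intervals that take regions as independent are thus too narrow here as well, and the sample 1 interval could reach 1 if this were allowed for. The flanks held 40 shared regions in the 2 Mb on the proximal side (20.0 per Mb) and 24 in the 1.568 Mb up to the last region of the chromosome (15.3 per Mb), and the ratio to both flanks was 0.966 (0.488 to 1.77). Without its last 150 kb, which were then counted with the rest of the chromosome, the cluster's ratio was 0.885 (0.287 to 2.07). That stretch was chosen after its many shared regions were seen, so a lower ratio followed by construction. The plots of density and of window counts show both clusters beside their chromosomes.

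**Figure D1:**
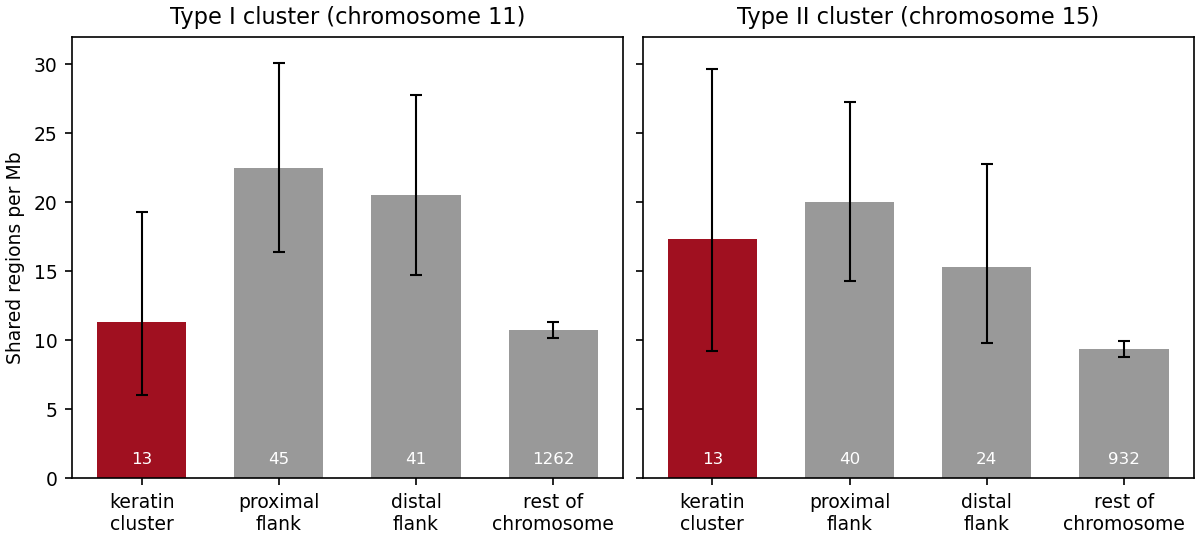
Density of shared regions (per Mb, y axis) in each keratin cluster, in its proximal and distal flanks of up to 2 Mb and on the whole rest of the chromosome, flanks included; bars give counts divided by length, whiskers the exact Poisson 95% interval, and the numbers in the bars the counts. The type I cluster (11.3 per Mb) lies at the level of its chromosome (10.7) and below both flanks (22.5 and 20.5), and the type II cluster (17.3 per Mb) lies between its flanks (20.0 and 15.3).

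**Figure D2:**
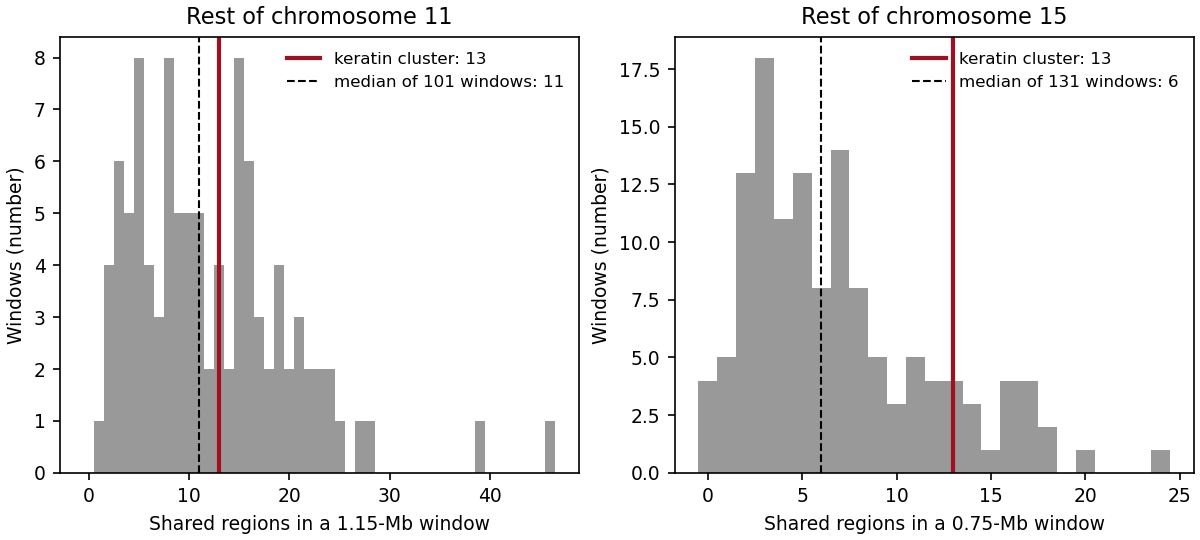
Number of shared regions (x axis) in consecutive windows of the cluster's own length on the rest of chromosome 11 (1.15 Mb, 101 windows) and chromosome 15 (0.75 Mb, 131 windows), with the number of windows on the y axis. Red lines mark the keratin clusters at 13 shared regions each, and dashed lines the medians of 11 and 6.

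The scores of keratin regions were spread over most of the range of their lists. In the type I cluster the median percentile was 51.5 in sample 1 (interquartile range 22.2 to 59.1) and 53.5 in sample 2 (27.5 to 76.7), against 47.5 and 50.0 on the rest of chromosome 11. In the type II cluster it was 69.0 in sample 1 (40.8 to 76.6) and 58.4 in sample 2 (40.2 to 80.3), against 49.1 and 48.7 on the rest of chromosome 15. The binomial 95% interval of the type II median reached from 31.6 to 86.0 in sample 1 and from 37.0 to 80.7 in sample 2, so it held the value of the rest of the chromosome in both. The upper 10% of its list was reached by 2 of the 31 sample 1 regions and by 6 of the 43 sample 2 regions. On the rest of chromosomes 11 and 15 it was reached by 256 of 2720 and by 427 of 4410.

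The order of the scores differed between the samples. Over the 26 shared regions, Spearman's rho of the scores was -0.016 (0.063 over the 13 of type I and -0.0027 over the 13 of type II), against 0.176 over all 20574 shared regions, descriptions across regions of the same libraries. The percentile was higher in sample 1 for 11 regions and higher in sample 2 for 15 (57.7%, against 59.0% of all shared regions). In 10 regions, 3 of type I and 7 of type II, it was above 50 in both lists (38.5%, against 36.2% of all shared regions), and in 1 it was at or below 50 in both (3.85%, against 19.1%). The difference from all shared regions was not tested, and nothing particular to the keratin regions is read from it. The plot of percentiles shows these regions on both sides of the diagonal.

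**Figure D3:**
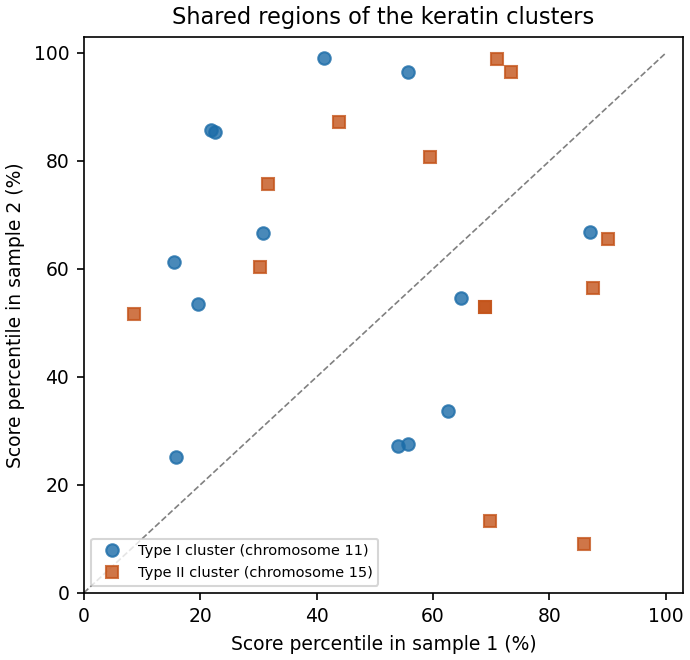
Score percentile in sample 1 (%, x axis) against that in sample 2 (%, y axis) for the 26 shared regions of the keratin clusters, with the dashed line at equal percentiles. Points lie far from the line on both sides, from percentiles of 86.0 and 9.01 to 21.9 and 85.7 in samples 1 and 2, and 2 type II regions coincide at 69.0 and 53.0.

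Keratin regions were of both width classes seen in the lists, narrow ones of less than 105 bp in sample 1 and 100 bp in sample 2, and wide ones at or above that width. Of the sample 1 regions in the clusters, 20 of 31 were narrow (64.5%, 45.4 to 80.8%), against 62.7% of the whole list. Of the sample 2 regions, 26 of 43 were narrow (60.5%, 44.4 to 75.0%), against 47.5% of the whole list, with 11 of 21 in the type I cluster and 15 of 22 in the type II cluster. Among the 26 shared regions, 10 were narrow in both lists, 4 wide in both, 5 narrow in sample 1 and wide in sample 2, 6 the reverse, and 1 was the double region. Among the 25 with 1 region in each list, 1 had the same first base and 2 the same last base in both. In 3 the sample 2 region started 16 bp further in, and in 1 it ended 16 bp further in. The shares of these width pairings and edges over all shared regions were not analysed here. Nothing particular to the keratin regions is therefore read from them.

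Called regions also lay just outside the limits of both clusters. Just outside the proximal limit of the type I cluster, 4.79 kb away, lay a sample 1 region with a score of 237.95, and 4.80 kb away one of sample 2 with 306.86. Just inside, at 10.7 kb, the scores were 116.88 and 132.10. At its distal limit the nearest outside regions, 12.3 kb away, scored 226.09 and 229.80, while the nearest inside ones scored 100.50 at 55.3 kb in sample 1 and 60.88 at 13.1 kb in sample 2. At the proximal limit of the type II cluster the outside regions scored 117.01 and 69.74, 8.16 and 8.15 kb away, and the inside ones 134.20 and 92.61, both 16.3 kb away. At its distal limit the outside regions scored 95.04 and 53.02, both 29.3 kb away, and the inside ones 207.04 at 6.30 kb in sample 1 and 143.15 at 0.139 kb in sample 2.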

How the data were processed

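The lists were made by the authors, 1 per replicate. Per the labels' protocols, each immunoprecipitation used 24 µg of chromatin, sequencing was single-end with 50 cycles in 2 lanes, and lanes were joined for each replicate after alignment. Bowtie 0.12.7, bedtools 2.11.2 and mm9 come from the submitters' processing notes, and the region names in the files carry the prefix MACS. For thresholds and any control, the sources used here give nothing. The score per region is as deposited by the authors, of unstated scale, and was used to rank within a list (ties take the higher percentile). The lists hold no read counts, so depth is unknown, and they cannot be checked for cell-type markers.

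Overlaps, densities and exact intervals were computed with scipy 1.17.1, pandas 2.3.3 and numpy 2.4.6 (Python 3.11.15). The overlap step was run on sample 1 regions moved by less than their width. Their overlaps were present by construction, so that run checked the code only. The interval of the density ratio was tested on simulated counts. The simulated counts were independent, so the coverage of the intervals for regions as unevenly spread as these was not tested. Densities refer to the length between the outermost regions of a chromosome. The width limit is the emptiest 5-bp bin between the narrow and wide populations. Coordinates count from 1. No test between groups was possible with 1 group. Named were all shared regions and the 3 highest-scoring others per list and cluster, plus neighbours and limits chosen after their values were seen. The members, limits and tests were chosen with earlier results of these data known. Region sequences are not printed, and regions were not placed against genes, because no sequence or annotation of this build was used here. Alternatives covered overlap, score limits, single lists, cluster limits, background and windows.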

Additional observations from a re-analysis of the deposited data

How the results depend on the processing

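Of 43 alternatives to 12 values, 36 stayed within the 95% interval of the value in the report and 7 left it. With the upper 50% of each list by score, the shared share fell to 37.5% and 27.3% in the type I cluster (samples 1 and 2). In the type II cluster it fell to 60.0% and 40.0%. Whole-list shares under the same limit were 58.1% and 35.0%, so a lower share was general. Fewer regions can overlap by construction. The type I shares, 3 of 8 and 3 of 11 regions, were below the 57.3% and 34.9% of the rest of chromosome 11. Their intervals, 8.52 to 75.5% and 6.02 to 61.0%, held these values, so no difference was detectable. On the rest of chromosome 15 the shares were 60.2% and 35.6%. Higher shares in the clusters than on the rest of the chromosome were thus not kept in type I or in sample 1 of type II. Against the flanks within 2 Mb, the density ratio was 0.526 for type I and 0.966 for type II, and this was the only alternative run in which the type I interval (0.269 to 0.947) did not include 1. Without its last 150 kb, an alternative chosen after seeing the data and lower by construction, the type II ratio was 0.885. With 1 list at a time, leaving out the other replicate, all regions of that list were counted, with or without a partner. This is another measure than the ratio of shared regions. It ranged from 0.861 to 0.963 for type I and from 1.53 to 1.89 for type II. For type I, moving the cluster limits by 50 kb gave a ratio of 0.887 inward and 1.42 outward. The type II interval lay above 1 with reciprocal overlap of 50% (2.25, 1.16 to 3.96). It also did so with sample 2 limited to the lowest sample 1 score (2.12, 1.05 to 3.82). The same held with limits moved 50 kb outward (1.89, 1.05 to 3.13) and in the sample 1 list alone. With limits moved 50 kb inward the type II ratio fell to 1.31 (0.564 to 2.59). That interval included 1, as it did under the other alternatives run. All of these intervals take regions as independent and are too narrow, so those that lay above 1 could include it. Moving the windows by 50% of their length, also chosen after seeing the data, gave 43.0% and 14.5% of windows with at least as many shared regions. Depth is unknown, so a region without a partner may have been missed in the other sample. The lists also differed in their lowest score, 70.03 in sample 1 and 50.0 in sample 2. Over the whole lists, 10770 of 21976 sample 2 regions without a partner (49.0%) scored below the lowest sample 1 score. This count assumes the same scale, and how far the different lowest scores bear on the shares was not tested. No paired analysis was possible because the samples form 1 group.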

Other observations

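Score values recurred within the lists. Regions whose score was shared with at least 1 other region of the same list made up 86.3% of sample 1 and 92.5% of sample 2, with 5931 and 7736 distinct scores. In the type II keratin cluster, the shared regions chr15:101512782-101512880 and chr15:101893610-101893743 had the same score as each other in both lists, 207.04 in sample 1 and 84.12 in sample 2. These scores were carried by 67 regions of sample 1 and by 248 regions of sample 2, and these 2 were the only overlapping pairs of the whole lists with that combination. In the type I cluster, 2 shared regions had the sample 1 score of 176.34, which 59 regions of that list carried, while their sample 2 scores were 189.85 and 63.46.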
